A study of Mus musculus with 5 samples.

Results

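Of the 45037 probe sets on the array that were not controls, 81 carried the symbol of a chemoreceptor gene. They were chosen by symbol alone, with no filter on signal: a probe set had exactly 1 gene symbol, and that symbol began with Olfr, the newer odorant receptor form Or, Vmn1r, Vmn2r or Taar. The 81 probe sets stand for 72 genes. Class I odorant receptors had 15 probe sets for 11 genes, class II odorant receptors 29 for 28, the V1R vomeronasal receptors 26 for 25, and the V2R vomeronasal receptors 10 for 7. The trace amine-associated receptor Taar1 had 1. Another 12 probe sets that carried such a symbol beside other symbols were left out.

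The study let RNA of mouse brain bind a protein, MA-Brent-1, in vitro and hybridised what was held to Affymetrix arrays. Bound RNA was eluted from deiminated protein (2 arrays) or from non-deiminated protein (2 arrays), and the remaining array held the starting RNA that had met no protein (input). Deimination turns arginine residues of a protein into citrulline. MA-Brent-1 is a member of the REF/Aly family of mRNA export adaptors, and the titles of deiminated replicate 2 and non-deiminated replicate 1 call it REFP2. Strain, age and how the protein was made are not given in the sources used here. All groups share brain as the source, and nothing says that the bound arrays came from separate animals except that 1 title names a biological repeat. Any p-value below is thus set against the spread among these arrays only, and that spread may be technical.

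Chemoreceptors are G protein-coupled receptors through which sensory neurons of the nose read odours and pheromones. An olfactory sensory neuron of the main epithelium transcribes a single odorant receptor gene out of a very large family and keeps the others shut. Its receptor signals through the G protein subunit encoded by Gnal, the adenylyl cyclase Adcy3 and a cyclic nucleotide-gated channel built from Cnga2, Cnga4 and Cngb1. V1R and V2R receptors belong to neurons of the vomeronasal organ, where they signal through Gnai2 and Gnao1 and the channel Trpc2. These receptor genes are commonly taken as silent in brain, with a few known to be used in other organs, and a probe set of a silent gene shows what an array reads in the absence of its own transcript. The files used here hold no detection calls, so absence was not tested for any single gene.

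As a group the receptor probe sets lay near the bottom of every array of bound RNA. Their median signal intensity was 3.26 and 4.28 on the deiminated replicates, 2.60 and 10.7 on the non-deiminated replicates and 44.0 on the input array, all in MAS5 signal units. The medians of all 45037 probe sets were 29.8, 37.5, 30.5, 41.4 and 102 in the same order. The receptors were thus below the array's own median on all 5 arrays, non-deiminated replicate 2 was the highest of the bound arrays, and the input array stood above all 4 of them. In RNA of a whole tissue, fewer cells of a type and less RNA per cell cannot be told apart.

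Ranks within an array do not depend on how the arrays were scaled to each other. The median receptor probe set lay at percentile 15.8 and 15.9 of the deiminated replicates, 12.7 and 24.4 of the non-deiminated replicates and 35.2 of the input array. Signals of different probe sets also differ through the binding of their probes, so a rank describes the readout and is not a level of expression. Between 43 and 57 of the 81 lay in the lowest 25% of a bound array, 3 to 6 lay above its median and 0 in its top 25%. On the input array 34 lay in the lowest 25%, 23 above the median and 5 in the top 25%. Receptors thus ranked low on the bound arrays and less so on the input array, and whether the genes were silent was not tested.

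**Figure D1:**
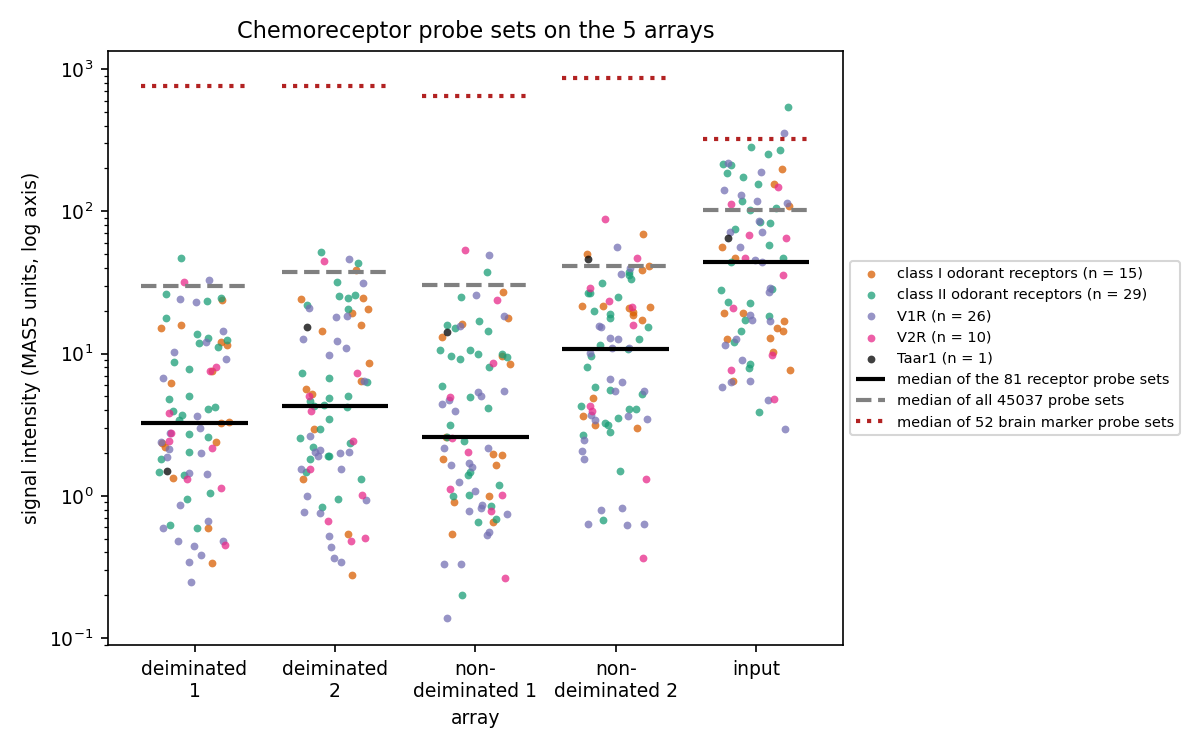
Signal intensity (log axis) of each of the 81 receptor probe sets on the 5 arrays, coloured by receptor class, with bars for the median of the receptors, of all 45037 probe sets and of 52 brain marker probe sets. The receptor medians run from 2.60 to 10.7 on the bound arrays and reach 44.0 on the input array, below the brain marker median on each array.

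Genes that brain does express set the scale. Listed markers of neurons and glia (such as Snap25, Mbp and Gfap) were measured by 52 probe sets for 21 genes, with a median signal of 759 and 755 on the deiminated replicates, 650 and 868 on the non-deiminated replicates and 321 on the input array. Over all pairs of a brain marker and a receptor probe set, the brain marker was the higher in 95.6% and 93.8% of pairs on the deiminated replicates, 93.7% and 89.0% on the non-deiminated replicates and 84.0% on the input array. Of the 52 brain marker probe sets, 39 to 43 lay above the highest receptor on a bound array and 20 did so on the input array. The 2 distributions overlapped on every array, and most on the input array.

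Other genes with little expression known in brain ranked low on the bound arrays as well. Probe sets of 4 such families (taste receptors, keratin-associated proteins, defensins and interferon alpha genes, 79 in all) had a median percentile of 18.3, 17.9, 15 and 21.3 on the bound arrays, in the order above, and 39.2 on the input array. On input the 43 keratin-associated probe sets lay at 51.6, with 22 above the array's median. Taste receptors lay at 32.6 there, defensins at 32.0 and interferon alpha genes at 41.4. Receptors of the same protein superfamily that brain does use, 71 probe sets of serotonin, dopamine, muscarinic, glutamate, GABA, adrenergic, cannabinoid, opioid, neuropeptide Y and adenosine receptors, lay at 43.5, 39.0, 42.9, 51.6 and 45.0. On each bound array a probe set of these neurotransmitter receptors was above a chemoreceptor in 76.1% to 78.5% of pairs, and on the input array in 64.2%. No test was made of these differences between probe sets, since probe sets are not replicates.

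**Figure D2:**
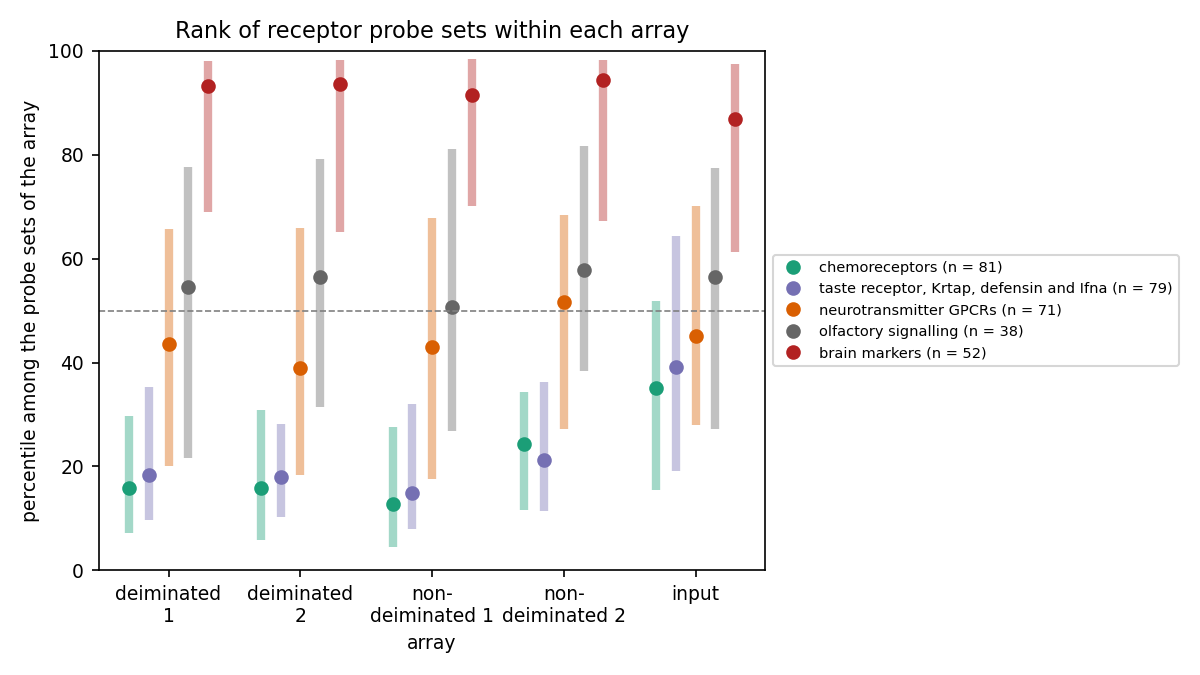
Percentile of a probe set among the 45037 probe sets of an array, for the chemoreceptors and 4 comparison lists: points are medians, bars run from the lower to the upper quartile, and the dashed line marks the array's median. Chemoreceptor medians lie between 12.7 and 24.4 on the bound arrays and at 35.2 on the input array, while brain marker medians lie between 86.9 and 94.4.

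The 6 receptor probe sets of highest mean rank over the bound arrays came from all 4 large classes. Among the odorant receptors, Olfr15 read 46.7 and 51.8 on the deiminated replicates, 24.8 and 31.5 on the non-deiminated replicates and 118 on the input array, as signal intensity. Probe set 1450596_at of Olfr66, one of the class I receptor genes that flank the beta-globin cluster, read 23.8 and 24.8, then 27.0 and 68.8, and 16.9 on input. Its neighbour in that cluster, Olfr64, read 11.5 and 20.5, then 17.8 and 41.1, and 108 on input. The first and the last had their highest signal on the input array, and 1450596_at of Olfr66 had its lowest there. The other Olfr66 probe set, 1422374_s_at, had its highest signal on input, at 199.

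Vomeronasal receptors completed the 6. Vmn2r29, by its probe set 1453083_at, read 31.6 and 44.9 on the deiminated replicates, 53.3 and 88.2 on the non-deiminated replicates and 47.0 on the input array. Vmn1r44 read 32.7 and 46.3, then 49.4 and 40.01, and 28.8 on input. Vmn1r54 read 22.9 and 18.1, then 25.7 and 56.4, and 119 on input. Vmn2r29 and Vmn1r44 were the highest by mean rank, at percentile 58.4 and 53.8, so even the foremost receptors sat near the middle of the bound arrays.

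At the other end, 3 vomeronasal probe sets were nearly without signal on the bound arrays. The second probe set of Vmn2r29, 1445286_at, read 0.449 and 0.503 on the deiminated replicates, 0.264 and 1.32 on the non-deiminated replicates and 64.9 on the input array. Vmn1r43 read 0.384 and 0.345, then 0.864 and 0.817, and 71.7 on input. Vmn1r14 read 0.865 and 0.758, then 0.333 and 0.800, and 9.03 on input. Low signal on the bound arrays thus went with a middling rank on the input array for the first 2 (percentile 40.4 and 42.3) and a low one for Vmn1r14 (8.08).

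The input array ordered the receptors differently. Its highest receptor was Olfr701, whose probe set 1432098_a_at read 542 there and 12.5, 6.28, 9.46 and 15.5 on the bound arrays (deiminated replicates 1 and 2, then non-deiminated replicates 1 and 2). The other Olfr701 probe set, 1430455_at, read 282 on input and 7.82, 6.73, 10.5 and 18.9 on the bound arrays. Vmn1r65 read 356 on input and 14.5, 31.5, 18.3 and 5.42 on the bound arrays. These were the receptors at percentile 95, 83.4 and 89.2 of the input array, and on every bound array all 3 lay below the array's median signal.

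Receptors nearest to the middle of the family showed the same step between bound and input RNA with much less signal. Olfr159 read 4.10, 5.01, 4.15 and 4.06 on the bound arrays in that order and 58.0 on input. Vmn2r10 read 1.31, 0.666, 2.05 and 23.5, and 68.5 on input. Vmn1r56 read 9.20, 0.941, 0.747 and 3.49, and 114 on input. Olfr159 varied little between bound arrays, whereas the single high bound value of Vmn2r10 came from non-deiminated replicate 2.

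Olfr78 and Olfr558 are class I receptors known for roles outside the nose, Olfr78 in the oxygen-sensing carotid body and the kidney. Olfr78 had 4 probe sets. By 1421506_at it read 15.1 and 24.4 on the deiminated replicates, 13.0 and 21.5 on the non-deiminated replicates and 55.7 on input, and by 1421507_at it read 0.336 and 0.276, then 0.653 and 18.7, and 156 on input. The remaining probe sets ran from 1.96 to 21.3 on the bound arrays and read 7.66 (1440009_at) and 10.3 (1453535_at) on input, so the 4 did not give Olfr78 a common order of arrays. Olfr558 read 2.40, 38.4, 1.64 and 3.0 on the bound arrays and 15 on input, with a single high value on deiminated replicate 2. Taar1, a receptor of trace amines that is used by monoamine neurons rather than by the nose, read 1.5, 15.5, 14.2 and 46.6 on the bound arrays and 65.2 on input. Its deiminated and non-deiminated replicates overlapped.

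Probe sets of a gene often disagreed. For the 7 genes with several probe sets (16 in all), the gap in percentile between the highest and the lowest probe set of a gene had a median of 18.8 and 12.1 on the deiminated replicates, 13.8 and 27.0 on the non-deiminated replicates and 46.0 on the input array. Vmn2r29 was the widest on each bound array, with gaps of 50.4, 53.7, 60.5 and 64.3 against 4.39 on the input array. Olfr701 was close on all arrays, with a gap of 0.739 to 7.15 on the bound arrays and 11.6 on the input array. On the input array the widest gaps were those of Olfr66, Olfr78 and Vmn1r41, at 52.7, 56.6 and 57.6. A signal of 1 probe set was therefore not read as the level of its gene.

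**Figure D3:**
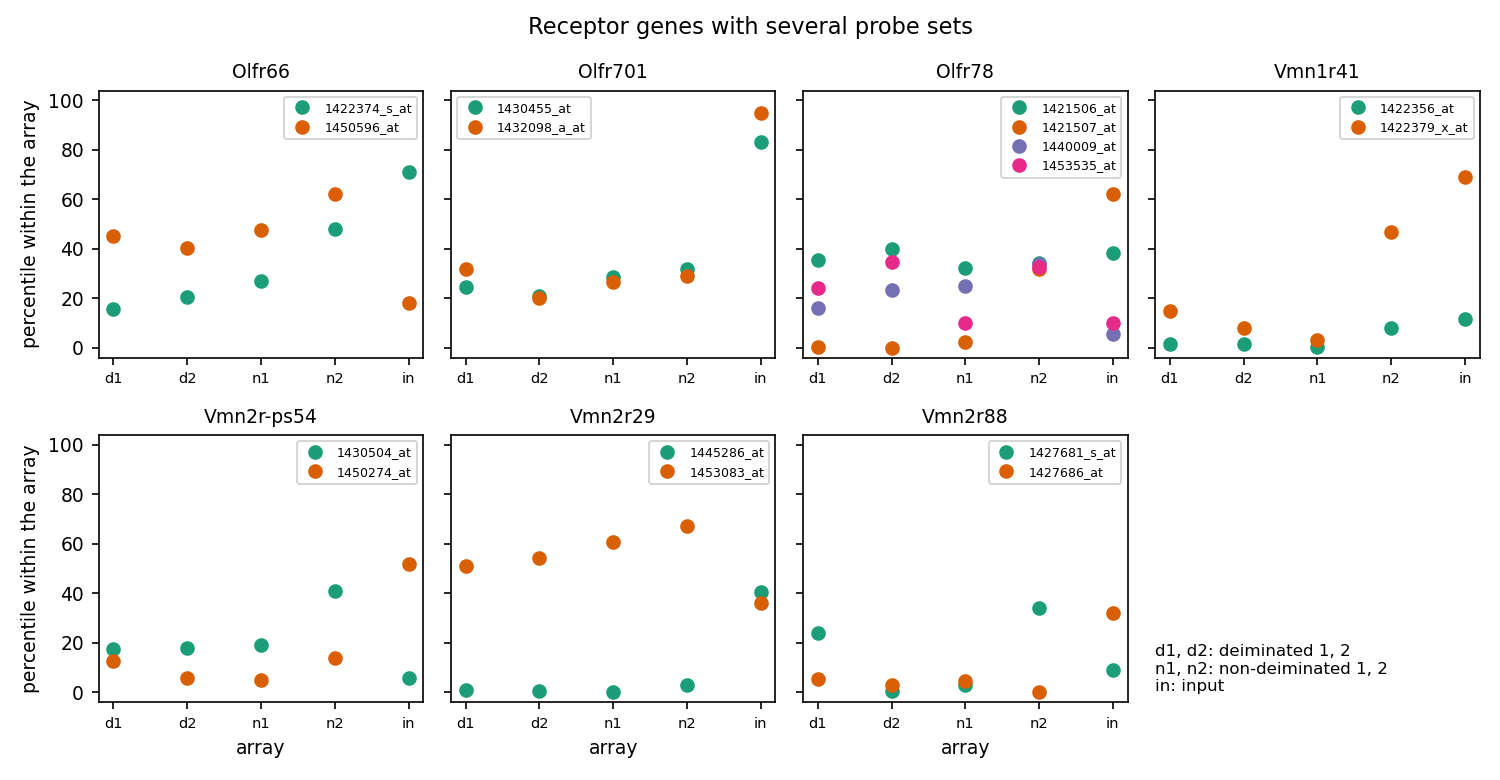
Percentile within each array of every probe set of the 7 receptor genes that have several, with 1 panel per gene and 1 colour per probe set. The probe sets of Olfr701 lie within 11.6 points of each other on each array, while those of Vmn2r29 lie 50.4 to 64.3 points apart on the bound arrays and 4.39 apart on the input array.

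Across the 81 probe sets, the pair of arrays most alike came from different groups. Pearson's r of the log2 signals was 0.57 between the deiminated replicates and 0.51 between the non-deiminated replicates. Between groups it was 0.71 for deiminated replicate 1 with non-deiminated replicate 1, 0.54 for deiminated replicate 2 with non-deiminated replicate 1, and 0.40 for either deiminated array with non-deiminated replicate 2. With the input array it was 0.30, 0.18, 0.28 and 0.15. These are correlations across probe sets that share arrays, scaling and probe binding, given as a description. Over all 45037 probe sets r was 0.93 between the deiminated replicates and 0.90 between the non-deiminated replicates, and among the 18015 dimmest it was 0.34 and 0.24. Deiminated replicate 1 with non-deiminated replicate 1 was the most alike pair there too, with 0.96 over all and 0.54 among the dimmest. In the other little-expressed families (79 probe sets) it was deiminated replicate 1 with non-deiminated replicate 2, at 0.67. A most alike pair from different groups was thus not particular to the receptors. The hybridisation controls, spiked-in transcripts of fixed amount from bacteria and a phage, differed between the arrays alongside: their mean log2 signal was 10.60 on deiminated replicate 1 and 10.09 on non-deiminated replicate 1, 12.60 and 13.04 on the second replicates, and 17.04 on the input array. Their part in the likeness of arrays was not tested.

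Non-deiminated replicate 2 stood above the other bound arrays at the receptors. It had the highest signal of the 4 bound arrays for 46 of the 81 probe sets (56.8%, against 39.4% of all probe sets), and by rank for 33 (40.7%, against 32.7%). It exceeded non-deiminated replicate 1 at 63 of 81 (77.8%, against 59.6% of all). Among the 79 probe sets of the other little-expressed families these shares were, in turn, 50.6%, 37.97% and 72.2%. Among the 18015 dimmest probe sets it was the highest bound array for 42.7% by signal and 32.9% by rank. Shares above those of all probe sets were thus not particular to the receptors. The median absolute log2 difference between the non-deiminated replicates was 0.76 at the receptors and 0.63 over all probe sets. Between the deiminated replicates it was 0.37 and 0.47.

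**Figure D4:**
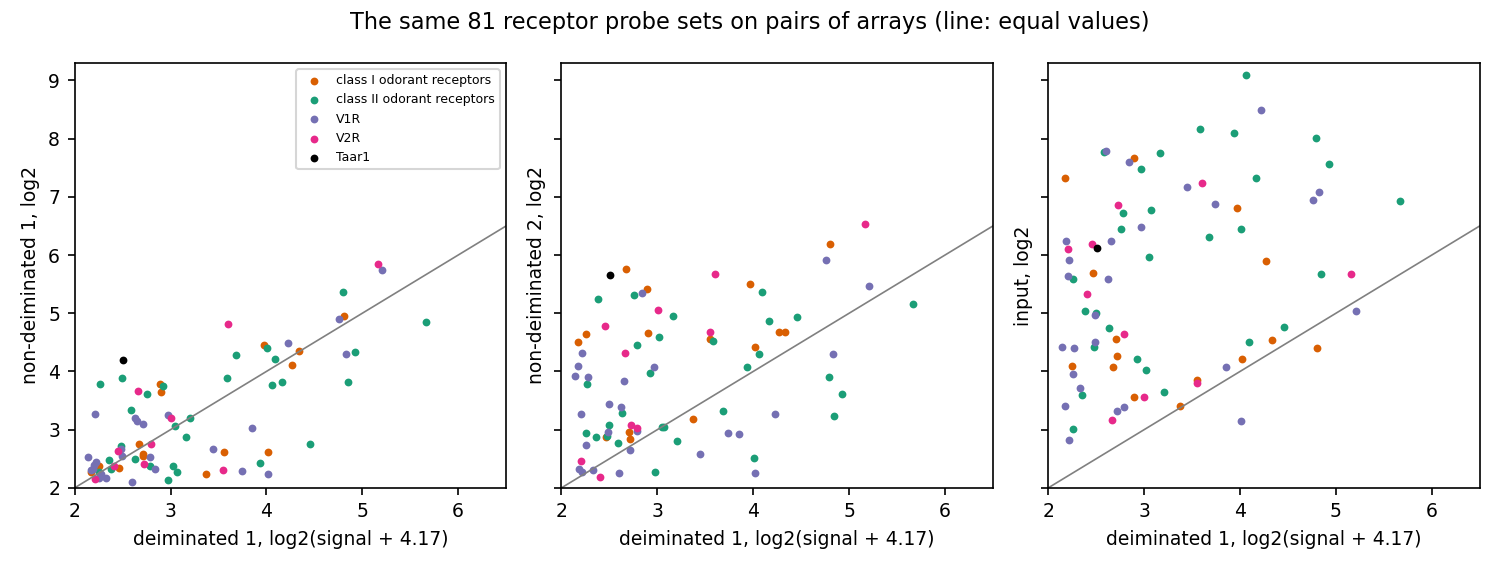
Log2 signal of the 81 receptor probe sets on deiminated replicate 1 (horizontal axes) against non-deiminated replicate 1, non-deiminated replicate 2 and the input array (vertical axes), with a line of equal values and colours for receptor class. Points follow the line most closely for non-deiminated replicate 1 (r = 0.71), lie more often above it for non-deiminated replicate 2 (r = 0.40) and lie above it for nearly all receptors on the input array (r = 0.30).

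The main comparison of the design asks whether deimination of the protein altered what RNA it held. No receptor passed the test between deiminated and non-deiminated replicates: limma called 0 of 81 at an adjusted p under 0.05, as it called 0 of all 45037 (0%). At an unadjusted p under 0.05 there were 2 of 81, against 923 of all (2.05%). The groups did not overlap at 26 of the 81 probe sets, which is 32.1% against 26.3% of all probe sets. The deiminated replicates were the higher at 7 (against 11.6% of all) and the lower at 19 (against 14.7%). The median log2 difference, deiminated minus non-deiminated, was -0.20 for the receptors and -0.03 for all probe sets, with 30 of the 81 above 0 and 51 below.

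The sign of that median rested on non-deiminated replicate 2. Without it the median was 0.04, and leaving out any other bound array gave medians down to -0.40. The pair of arrays titled with MA-Brent-1 (deiminated replicate 1 and non-deiminated replicate 2) had a median difference of -0.49, and the pair titled with REFP2 had 0.12. The same medians over all probe sets were -0.21 and 0.12. A protein name as a block left 0 receptors called.

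The pair with an unadjusted p under 0.05 were vomeronasal receptors of opposite direction. Vmn1r53 read 12 and 10.9 on the deiminated replicates and 0.530 and 0.624 on the non-deiminated replicates, with 4.70 on input. Its log2 difference was 1.71 ± 0.46 (SE; 95% interval 0.72 to 2.71, unadjusted p = 0.00264 in limma, not passed after adjustment). Vmn2r84 read 2.17 and 2.42 on the deiminated replicates, 8.58 and 15.8 on the non-deiminated replicates and 4.81 on input. Its log2 difference was -1.30 ± 0.53 (95% interval -2.46 to -0.15, unadjusted p = 0.0301 in limma, not passed after adjustment). In both genes the groups lay apart, at signals within a few multiples of the pseudocount of 4.17 that was added before log2, which shrinks such differences.

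Other receptors with separate groups did not pass at an unadjusted p under 0.05. Vmn2r1, of the small V2R subfamily that is expressed along with other V2R genes in a neuron, read 7.99 and 7.33 on the deiminated replicates and 23.9 and 47.0 on the non-deiminated replicates, with a log2 difference of -1.68 ± 0.80. The differences of Olfr658, Vmn1r11 and Vmn1r49 were -1.26 ± 0.65, -1.05 ± 0.52 and -1.0 ± 0.52. These genes read 20.8, 10.9 and 13.0 on non-deiminated replicate 2. On the other bound arrays they lay under the pseudocount of 4.17, so these differences rest on that array and the pseudocount. On the other side Olfr976, Vmn1r50, Olfr15 and Olfr68 had differences of 1.33 ± 0.83, 1.14 ± 0.73, 0.73 ± 0.63 and 0.59 ± 0.49. None of these passed. By class the median log2 difference was -0.24 for class I and -0.26 for class II odorant receptors, -0.15 for V1R and -0.70 for V2R. Of the 10 V2R, 8 were below 0, as were 23874 of all 45037 probe sets. Non-deiminated replicate 2 was the highest bound array for 8 of the 10 V2R. Their median signal was 18.5 there, against 2.31 on non-deiminated replicate 1 and 2.60 and 1.98 on the deiminated replicates. Taar1 had a log2 difference of -1.53 ± 0.93.

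The design could not show small differences at these genes. The median standard error of the log2 difference was 0.70. The 95% interval lay within a 4-fold change in either direction for 32 of the 81 (39.5%, against 62.7% of all probe sets) and within a 2-fold change for 4 (4.94%, against 16.3%).

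The comparison of bound with input RNA asks which RNAs the protein held in excess of their share. In the signals as scaled by the authors, receptors as a group were lower in RNA bound to deiminated protein than in input, and a scaling to the hybridisation controls turned their median upward to 1.04. limma called 43 of 81 lower (53.1%) and 0 higher at an adjusted p under 0.05, where it called 32.6% of all probe sets lower and 14.6% higher. The median log2 difference was -2.25 over the receptors and -0.96 over all probe sets, with quartiles at -3.44 and -0.92, so the receptors lay 1.29 below the median of all. Of the 81, 77 were below 0. Among the 18015 dimmest probe sets 44.8% were called lower, with a median of -1.88, and among the 79 probe sets of the other little-expressed families 45 were called lower, with a median of -2.46.

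For non-deiminated protein the values ran alongside, measured against the same single input array. limma called 36 of 81 lower (44.4%) and 0 higher, against 30.8% lower and 14.4% higher over all probe sets. The median log2 difference was -1.81 over the receptors and -0.90 over all, with 73 of the 81 below 0, and it too turned upward, to 1.37, when arrays were scaled to the hybridisation controls. The dimmest probe sets had 42.2% called lower and a median of -1.77, and the other little-expressed families had 43 of 79 called lower and a median of -2.36. Neither the input array nor its spread was replicated. In limma it was taken to vary like the bound arrays.

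How many receptors were called lower depended on the scaling between arrays. For deiminated against input, median centring left 13 lower and 1 higher, quantile normalisation 21 and 1, cyclic loess 8 and 2, and hybridisation control scaling 0 and 0. Over all probe sets the first 3 of these called 7.87%, 18.5% and 10.7% lower. Under cyclic loess the receptors' share called lower was thus near that of all. The same settings called 12023, 9494 and 6241 of all 45037 higher, so few receptors were called higher in each. For non-deiminated against input the receptor counts were 14 and 2, 18 and 1, 8 and 3, and 0 and 0. There the first 3 settings called 7.32%, 18.2% and 10.3% of all lower, and 11677, 9339 and 6095 of all 45037 higher. Relative to the median of all probe sets, the receptors' median lay at -1.94 for deiminated and -1.71 for non-deiminated protein under hybridisation control scaling, and at -0.29 and 0.09 under cyclic loess. The input array carried a hybridisation control level of 17.04 against 10.09 to 13.04 on the bound arrays, and a ratio of 3' to 5' signal of 234 for beta-actin (over a 5' signal of 16.7), with 29.8 to 55.6 on the bound arrays. For Gapdh that ratio was 2.71 on input and 17.4 to 31.9 on the bound arrays. Their part in the difference from input was not tested.

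By rank alone, 42 of the 81 receptors (51.9%, against 39.7% of all probe sets) had a higher percentile on the input array than on each bound array. By signal 61 did (75.3%, against 54.7%). Only Vmn1r44 and the 1450596_at probe set of Olfr66 had their lowest signal on the input array, 2 of 81 (2.47%, against 25.2%). Among the 79 probe sets of the other little-expressed families these shares were, in turn, 59.5%, 79.7% and 1.27%. Among the 18015 dimmest probe sets they were 47.7%, 68.5% and 4.34%. The pattern was thus not particular to the receptors.

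**Figure D5:**
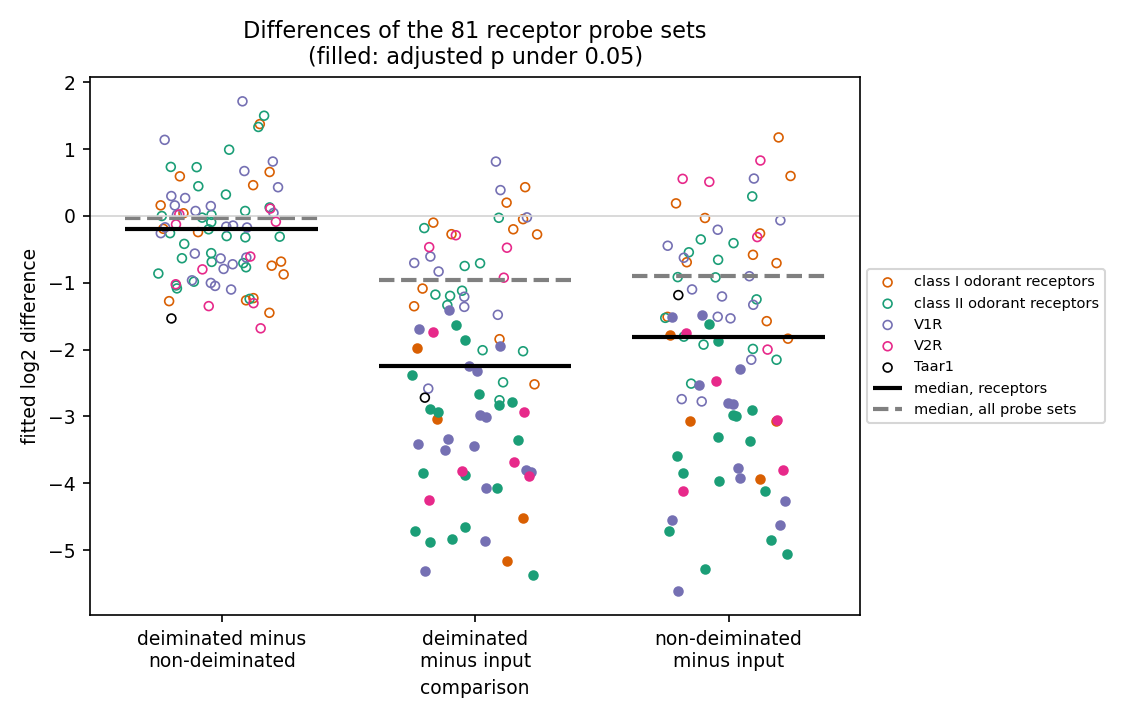
Fitted log2 differences of the 81 receptor probe sets in the 3 comparisons, by receptor class. Filled points passed an adjusted p under 0.05 (0, 43 and 36 probe sets), and bars give the median of the receptors (-0.20, -2.25 and -1.81) and of all probe sets (-0.03, -0.96 and -0.90). The medians against input hold for the deposited scaling and turn positive (1.04 and 1.37) under scaling to the hybridisation controls.

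The classes of receptor were called lower to different extents, and no test of the difference between them was made. Against input, deiminated protein had 17 of 29 class II odorant receptors called lower, 16 of 26 V1R, 6 of 10 V2R and 4 of 15 class I. The share of class I (26.7%) lay below the 32.6% of all probe sets called lower. The median log2 differences were -2.66, -2.29, -2.33 and -1.09. Non-deiminated protein had 15, 12, 5 and 4 called lower, against 30.8% of all, with medians of -2.15, -1.84, -1.88 and -0.71. Class I receptors were also the dimmest on the input array, with a median signal of 16.9 there against 75 for class II, 36.3 for V1R and 41.5 for V2R.

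On the bound arrays the classes lay in another order. Class I medians were 3.28 and 8.62 on the deiminated replicates and 1.96 and 20.8 on the non-deiminated replicates, as signal intensity. Class II medians were 4.23, 4.33, 5.91 and 9.66, V1R medians 2.06, 2.05, 1.67 and 5.42, and V2R medians 2.60, 1.98, 2.31 and 18.5. V1R had the lowest class median on 3 of the 4 bound arrays and V2R on the remaining one.

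The 5 largest differences from input among the called receptors ran from -5.37 to -4.87 for deiminated and from -5.61 to -4.72 for non-deiminated protein, on the log2 scale. Olfr701 (1432098_a_at), with the values given above, differed by -5.37 ± 0.99 on the log2 scale for deiminated (95% interval -7.52 to -3.22, adjusted p = 0.00155 in limma) and by -5.06 ± 0.99 for non-deiminated (adjusted p = 0.00229 in limma). Vmn1r45 read 1.89, 0.990, 0.138 and 0.631 on the bound arrays and 218 on input, with log2 differences of -5.31 ± 0.68 (adjusted p = 0.000154 in limma) and -5.61 ± 0.68 (adjusted p = 0.000109 in limma). Its bound signals all lay under the pseudocount, so these differences rest on the input signal and the pseudocount.

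Olfr78 (1421507_at), Olfr49 and Vmn1r41 (1422379_x_at) followed for deiminated protein. Their log2 differences were -5.16 ± 0.95, -4.88 ± 1.09 and -4.87 ± 1.19, with adjusted p of 0.00158, 0.00451 and 0.00705 in limma. Olfr49 read 4.78, 1.83, 3.17 and 26.8 on the bound arrays and 212 on input. Vmn1r41 read 2.99, 2.0, 0.819 and 36.5, and 190 on input, by a probe set whose suffix marks probes that may also match other genes. In all 3 non-deiminated replicate 2 was the highest bound array and lay below input. The deiminated signals of 1421507_at and 1422379_x_at lay under the pseudocount. For deiminated protein the other Olfr78 probe sets, 1421506_at, 1440009_at and 1453535_at, had differences of -1.35, -0.28 and 0.20 that did not pass. The other Vmn1r41 probe set, 1422356_at, fell less, with -1.68 (adjusted p = 0.00941 in limma).

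For non-deiminated protein Olfr74, Olfr75-ps1 and Olfr2 completed the 5. Olfr74 read 3.67, 0.834, 0.201 and 0.677 on the bound arrays and 174 on input, with a log2 difference of -5.27 ± 0.70 (adjusted p = 0.000205 in limma). As for Vmn1r45, its bound signals all lay under the pseudocount, so this difference rests on the input signal and the pseudocount. The pseudogene Olfr75-ps1 read 11.1, 43.2, 1.19 and 12.7, and 269.5 on input, with -4.84 ± 1.14 (adjusted p = 0.00609 in limma). Olfr2, the receptor known as I7 that responds to octanal, read 1.83, 7.34, 5.91 and 2.68, and 215 on input, with -4.72 ± 0.92 (adjusted p = 0.0023 in limma). Under hybridisation control scaling the differences of Olfr701 and Olfr2 for non-deiminated protein were 0.04 and 0.11, and neither passed.

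No receptor passed as higher in bound RNA in the deposited scaling. For deiminated protein the largest positive differences with separate groups were 0.81 ± 0.56 for Vmn1r53, 0.43 ± 0.99 for Olfr66 (1450596_at) and 0.39 ± 0.86 for Vmn1r44, with adjusted p of 0.247, 0.743 and 0.733 in limma. Vmn1r53 passed as higher under median centring, quantile normalisation and cyclic loess, with log2 differences of 2.31, 1.78 and 2.66. For non-deiminated protein Olfr66 had 1.17 ± 0.99 (adjusted p = 0.352 in limma), Vmn2r84 0.83 ± 0.65, Olfr78 (1440009_at) 0.60 ± 0.84, Vmn1r44 0.56 ± 0.86 and Vmn2r29 (1453083_at) 0.51 ± 0.77. Of these, Vmn2r84 passed as higher under median centring, quantile normalisation and cyclic loess (2.25, 1.69 and 2.63), Olfr66 under median centring and cyclic loess (2.59 and 2.83) and Olfr78 under cyclic loess (2.47). In the deposited scaling, other probe sets of Olfr66 (1422374_s_at), Olfr78 (1421507_at) and Vmn2r29 (1445286_at) were called lower for non-deiminated protein. Their log2 differences were -3.07, -3.94 and -3.81 (adjusted p = 0.036, 0.00718 and 0.000294 in limma). Taar1 passed in neither comparison, with -2.72 ± 1.14 (adjusted p = 0.067 in limma) and -1.18 ± 1.14 (adjusted p = 0.417 in limma).

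The genes through which the receptors signal did not lie with them. Of 20 listed genes of olfactory signalling and receptor trafficking, 17 had probe sets (38 in all), and Ano2, Rtp1 and Rtp2 had none of their own. Their median percentile was 54.6 and 56.4 on the deiminated replicates, 50.8 and 57.9 on the non-deiminated replicates and 56.4 on the input array. Many members of this list, such as Gnao1, Gnai2, Gnb1 and Gnal, are used widely in brain. None passed between deiminated and non-deiminated replicates. Against input, 6 passed as higher (15.8%, against 14.6% of all probe sets) and 13 as lower (34.2%, against 32.6%) for deiminated protein. For non-deiminated protein 6 passed as higher (15.8%, against 14.4%) and 11 as lower (28.9%, against 30.8%). These shares were near those of all probe sets.

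Among the members used mainly by the sensory neurons, probe sets differed in the deposited scaling. Omp, the marker of mature olfactory sensory neurons, read 2.21, 5.38, 8.74 and 9.16 on the bound arrays and 261 on input by 1422199_at. It fell against input, with log2 differences of -5.09 for deiminated and -4.34 for non-deiminated protein (adjusted p = 0.00186 and 0.00469 in limma). Its other probe set, 1422200_at, read 7.86, 59.3, 10.3 and 51.5, and 25.3 on input, with differences of -0.09 and -0.05 that did not pass. The channel subunit Cnga2 read 2.27, 2.04, 4.21 and 1.85 on the bound arrays and 124 on input, and fell, with log2 differences of -4.34 and -4.18 (adjusted p = 0.00106 and 0.00141 in limma). Its partners Cnga4 and Cngb1 fell as well, with -4.12 and -2.28 for deiminated protein, as did the vomeronasal channel Trpc2 (1430485_at) with -2.59. The other probe set of Trpc2, 1436854_at, had log2 differences of 0.19 and 1.35 for deiminated and non-deiminated protein, and neither passed.

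Members that brain also uses differed among themselves, and among their own probe sets. Gnal, whose subunit serves dopamine receptors in the striatum as well, read 327, 398, 338 and 251 on the bound arrays and 124 on input by 1439957_at. It rose against input by 1.51 for deiminated and by 1.20 for non-deiminated protein on the log2 scale (adjusted p = 0.0095 and 0.0268 in limma). By 1442021_at Gnal read 686, 1130, 556 and 1367, and 872 on input, with log2 differences of 0.01 and 0.00. The cyclase Adcy3, which also marks neuronal cilia, read 205, 197, 246 and 213, and 122 on input by 1421960_at, with a log2 difference of 0.70 for deiminated protein that did not pass, whereas its probe set 1436928_s_at fell by 1.25. Reep1, a membrane-shaping protein that helps receptors to the cell surface, rose by 4.44 and by 4.38 (1433509_s_at, adjusted p = 1.75e-05 and 1.94e-05 in limma). Its probe set 1449662_at had log2 differences of 1.60 and 1.42 that did not pass.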

How the data were processed

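The 5 Affymetrix arrays were read from the table of signal intensity values that the authors deposited, on a linear scale. Per the submitters' processing notes they were made with MAS5 (version not given in the sources used here). Trimmed by 2% at either end, the mean signal came to 150.0 for each of the 5, which shows a scaling to a common level. Gene symbols came from the platform annotation: 34945 probe sets had 1 symbol, 932 several and 9160 none listed. Class I and class II odorant receptors were told apart by the MOR synonyms in the RefSeq gene table (assembly GRCm38.p6), which matched all 81 members and was used for names alone. The files name no genome build, so no coordinates are given.

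Before log2, 4.17 was added as a pseudocount (the overall median of 41.7 divided by 10), and no filter on signal was used. It reached or exceeded the signal of 27 to 48 of the 81 members on a bound array and of 2 on the input array, so log2 differences understate changes there. Differences were fitted on all 45037 non-control probe sets with limma 3.58.1 in R 4.3.3 (lmFit, eBayes with a trend) as 1 model of 3 group means, with 2 residual and 10.25 prior degrees of freedom. p-values were adjusted by Benjamini-Hochberg over all of them, and a probe set with an adjusted p under 0.05 is called. Errors after ± are limma standard errors. The model was tested on simulated data. Replicates are numbered in accession order, which pairs nothing, and the number of arrays limits the precision.

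Named members were the 6 highest and 3 lowest by mean percentile over the bound arrays, the 3 highest on input, the 3 nearest the median signal, and in each comparison up to 5 per direction by log2 difference among called probe sets with separate groups. Remaining places went to the largest moderated t among members with separate groups, which did not pass. Olfr78, Olfr558, Taar1, Omp, Gnal, Adcy3 and Cnga2 were named throughout. Genes with several probe sets were described by count and by the gap between their probe sets, and not all of them are named. Lists of brain markers, olfactory signalling, olfactory epithelium, olfactory bulb, blood and choroid plexus genes were written from textbook knowledge. The members and lists were chosen with earlier results of these data known. Alternatives covered pseudocount, filter, scaling, variance model, array left out and choice of probe sets; fits by the protein name in the titles were added after seeing the data.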

Additional observations from a re-analysis of the deposited data

How the results depend on the processing

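For deiminated against non-deiminated protein, 0 receptors were called under each of 15 alternatives, leave-one-out included, and the median log2 difference (-0.20 as reported) without 1 array ran from -0.40 to 0.04. It was -0.68 over the 11 receptors that pass the filter, -0.37 with a pseudocount of 1.04 and -0.068 with 4 times the pseudocount. Against input, for deiminated and non-deiminated protein in turn, 43 and 36 receptors were called as reported. With a filter at the 40th percentile, 7 and 5 of the 11 receptors that pass were called lower. Of all 27022 probe sets that pass, 7186 and 6950 were called lower. The filter used the mean over all 5 arrays, input included, so a high input signal helps a receptor pass. The share called among the 11 is therefore not read as a result. Direction and calls over all probe sets are given above for median centring, quantile normalisation and cyclic loess. These gave 14 and 16, 22 and 19, and 10 and 11 receptor calls in turn. Hybridisation control scaling gave 0 and 0. The last also called 0 of all probe sets, with 1 and 0 receptors and 7288 and 7497 of all at an unadjusted p under 0.05 in limma. Median log2 differences (-2.25 and -1.81) were -1.26 and -1.16 with 4 times the pseudocount, -0.76 and -0.39 with median centring, -0.85 and -0.64 with quantile normalisation, -0.42 and -0.057 with cyclic loess, and 1.04 and 1.37 with hybridisation control scaling. A pseudocount of 1.04 gave -2.86 for deiminated protein. Hybridisation control scaling turned the differences of Olfr701 (1432098_a_at) and Olfr2 for non-deiminated protein to 0.043 and 0.112. The cause of these changes was not tested, apart from the filter, which tests fewer receptors and selects partly on the input signal. Leaving out 1 bound array gave medians from -2.28 to -1.85 for deiminated and from -2.04 to -1.53 for non-deiminated protein. Over all probe sets, calls for deiminated against input were 6556 higher and 14698 lower as reported, and 12023 and 3544 with median centring. The medians of signal and percentile on each array moved by less than 1 replicate SD in the 20 alternatives run, which used 1 probe set per gene or left out probe sets with a suffix. No paired analysis was possible because the labels give the groups no shared replicate numbers; the protein name in the titles, used as a block, is no replicate number, and left 0 receptors called. The single input array, the dim signals of the receptors and the lack of detection calls limit what the comparisons with input can show.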

Other observations

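Other listed genes of the olfactory epithelium gave mixed values. Of 14 listed genes of olfactory epithelium support cells and of receptor choice, 13 had probe sets (24 in all, none for Cyp2a5), with a median percentile of 53.5 to 57.6 on the bound arrays and 49.0 on the input array. The secreted odorant binding protein gene Obp1a read 1.44, 0.863, 0.394 and 0.706 on the bound arrays (deiminated, then non-deiminated) and 51.6 on input, and fell against input, with log2 differences of -3.39 and -3.56 for deiminated and non-deiminated protein (adjusted p under 0.05 in limma). Its bound signals all lay under the pseudocount, so these differences rest on the input signal and the pseudocount. Both probe sets of Bpifb9b, another secreted protein gene of the nose, fell, with -3.93 and -3.8 for deiminated protein. Ermn rose by 3.68 by its probe set 1440902_at, with 1243, 998, 1204 and 1034 on the bound arrays and 83.0 on input, and this gene is used by oligodendrocytes too. Its probe set 1436578_at had differences of -0.28 and -0.035 that did not pass. In all, 3 of the 24 passed as higher (12.5%, against 14.6% of all probe sets) and 7 as lower (29.2%, against 32.6%) for deiminated protein in the deposited scaling. For non-deiminated protein the counts were 3 (12.5%, against 14.4%) and 6 (25%, against 30.8%), so no share exceeded that of all probe sets.

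Genes of the olfactory bulb, the part of the brain that receives the sensory axons, are used by other brain regions too. The 8 listed genes had 10 probe sets, with a median percentile of 64.4 to 71 on the bound arrays and 68.9 on the input array. Cdhr1, a cadherin of mitral and tufted cells, read 128, 96.4, 114 and 125 on the bound arrays and 9.95 on input, and rose by 3.03 and by 3.13. Reln, which encodes the matrix protein reelin, rose by 1.11 and by 1.16 by 1449465_at, and fell, with -5.36 and -4.18, by 1458020_at. Doc2g fell, with -1.61 and -1.67, and the dopamine synthesis gene Th had differences of -0.83 and -0.67 that did not pass. No probe set of the bulb, epithelium, blood or choroid plexus lists passed between deiminated and non-deiminated arrays, and the count at an unadjusted p under 0.05 was 0 in each of these lists in limma.

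Markers of blood and of choroid plexus also gave mixed values. The blood genes Alas2 and Hba-a1 (2 of 3 listed, none for Hbb-bs) had a median percentile of 54.7 to 59.2 on the bound arrays and 55.7 on input, and Hba-a1 fell against input, with -3.35 and -3.42, while Alas2 had differences of 1.80 and 1.75 that did not pass (adjusted p = 0.0517 and 0.0585 in limma). The 4 choroid plexus genes had 9 probe sets at a median percentile of 80.4 to 83.1 on the bound arrays and 93.5 on input. Ttr, the thyroid hormone carrier of that tissue, read 9226, 10523, 8322 and 11305 on the bound arrays and 1046 on input by 1459737_s_at, and rose by 3.23 and by 3.21. Its probe set 1451580_a_at rose by 1.04 and by 1.31, and the other two, 1454608_x_at and 1455913_x_at, had differences of 1.41 and 1.26 for deiminated protein that did not pass. Folr1, Clic6 (1434165_at) and Kl (1451892_at) fell, with -2.30, -1.97 and -2.32 for deiminated and -2.23, -1.80 and -2.54 for non-deiminated protein. The bound signals of 1451892_at all lay under the pseudocount. The other probe set of Kl, 1423400_at, had differences of 0.85 and 1.17, and that of Clic6, 1454866_s_at, had -0.23 and -0.46. None of these passed. In both comparisons 2 of the 9 probe sets passed as higher and 3 as lower (22.2% and 33.3%), against 14.6% and 32.6% of all probe sets for deiminated and 14.4% and 30.8% for non-deiminated protein.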
